A study of Rattus norvegicus with 12 samples.

Results

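The renin-angiotensin system was examined through 7 of its genes: Agt, Agtr1a, Agtr1b, Atp6ap2, Ace, Mme and Enpep. They were taken as the listed genes for which the platform annotation gives a probe set exactly 1 symbol, and all such probe sets were kept whatever their values. This gave 11 probe sets of 7 genes, out of 20826 singly named probe sets of 14217 genes. A probe set is a group of short probes that together measure 1 transcript.

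Expression was measured with Affymetrix rat genome arrays in liver and renal cortex (called kidney in the labels) of male rats. The title of the series asks about formic aciduria after trichloroethylene (TCE), a chlorinated solvent. The TCE groups received 16 mg/kg of TCE per day by mouth for 3 days in corn oil (5 ml/kg), and the control groups the same volume of corn oil alone; all were killed 24 h after the last dose. Each of the 4 groups (liver control, liver TCE, kidney control, kidney TCE) holds 3 arrays, 12 in all. The rats carried no named mutation, were 7 to 9 weeks old and weighed 190 to 240 g. They are described as Wistar-derived in one label and as F-344 (Wistar-derived) in another. Values are log2 expression values, with a shared lowest value of 2.17 at which 27.5% to 29.1% of probe sets sat on each array. The array medians were 3.51 to 3.54 in liver and 3.88 to 3.96 in kidney, and the correlation across probe sets of any pair of arrays within a group was 0.9926 to 0.997. Only 3 arrays a group limit the precision of every value. Hepatocyte markers were bright in liver, with a list mean of 15.46 to 15.49 log2 units, and proximal tubule markers were bright in kidney, with 11.79 to 12.36 there against 5.73 to 5.88 in liver.

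In the renin-angiotensin system angiotensinogen, a secreted protein made mainly by hepatocytes, is cut to angiotensin I, and angiotensin-converting enzyme trims this to angiotensin II. Angiotensin II acts on type 1 receptors in vessels, adrenal gland, kidney and liver, where it raises blood pressure and sodium retention. Membrane peptidases, abundant on the brush border of the proximal tubule, shorten or destroy the peptides. Rodents have a pair of type 1 receptor genes, Agtr1a and Agtr1b, with nearly identical protein products.

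In control rats 9 of the 10 member probe sets tested differed between liver and kidney, where 61.8% of all 18625 probe sets tested did (limma, Benjamini-Hochberg adjusted p under 0.05). Among the 9, the Agtr1b set passed the filter on dim probe sets only through its kidney values. Agt and Agtr1a were higher in liver, and Agtr1b, Atp6ap2, Ace, Mme and Enpep were higher in kidney. After TCE 0 member probe sets passed that threshold in either tissue, where 0% of the probe sets tested did. The sets with the smallest p in treated livers were the dimmer ones of Ace, Agtr1a and Atp6ap2, whose brighter sets differed by -0.06, -0.03 and 0.05 log2 units. In treated kidneys they were the Agt set and the dimmer Atp6ap2 set, where the brighter Atp6ap2 set differed by 0.07. Their unadjusted limma p was under 0.05, as for 13.8% of all probe sets tested in liver and 14.5% in kidney. In bulk tissue, fewer cells of a type and less RNA per cell cannot be told apart.

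**Figure D1:**
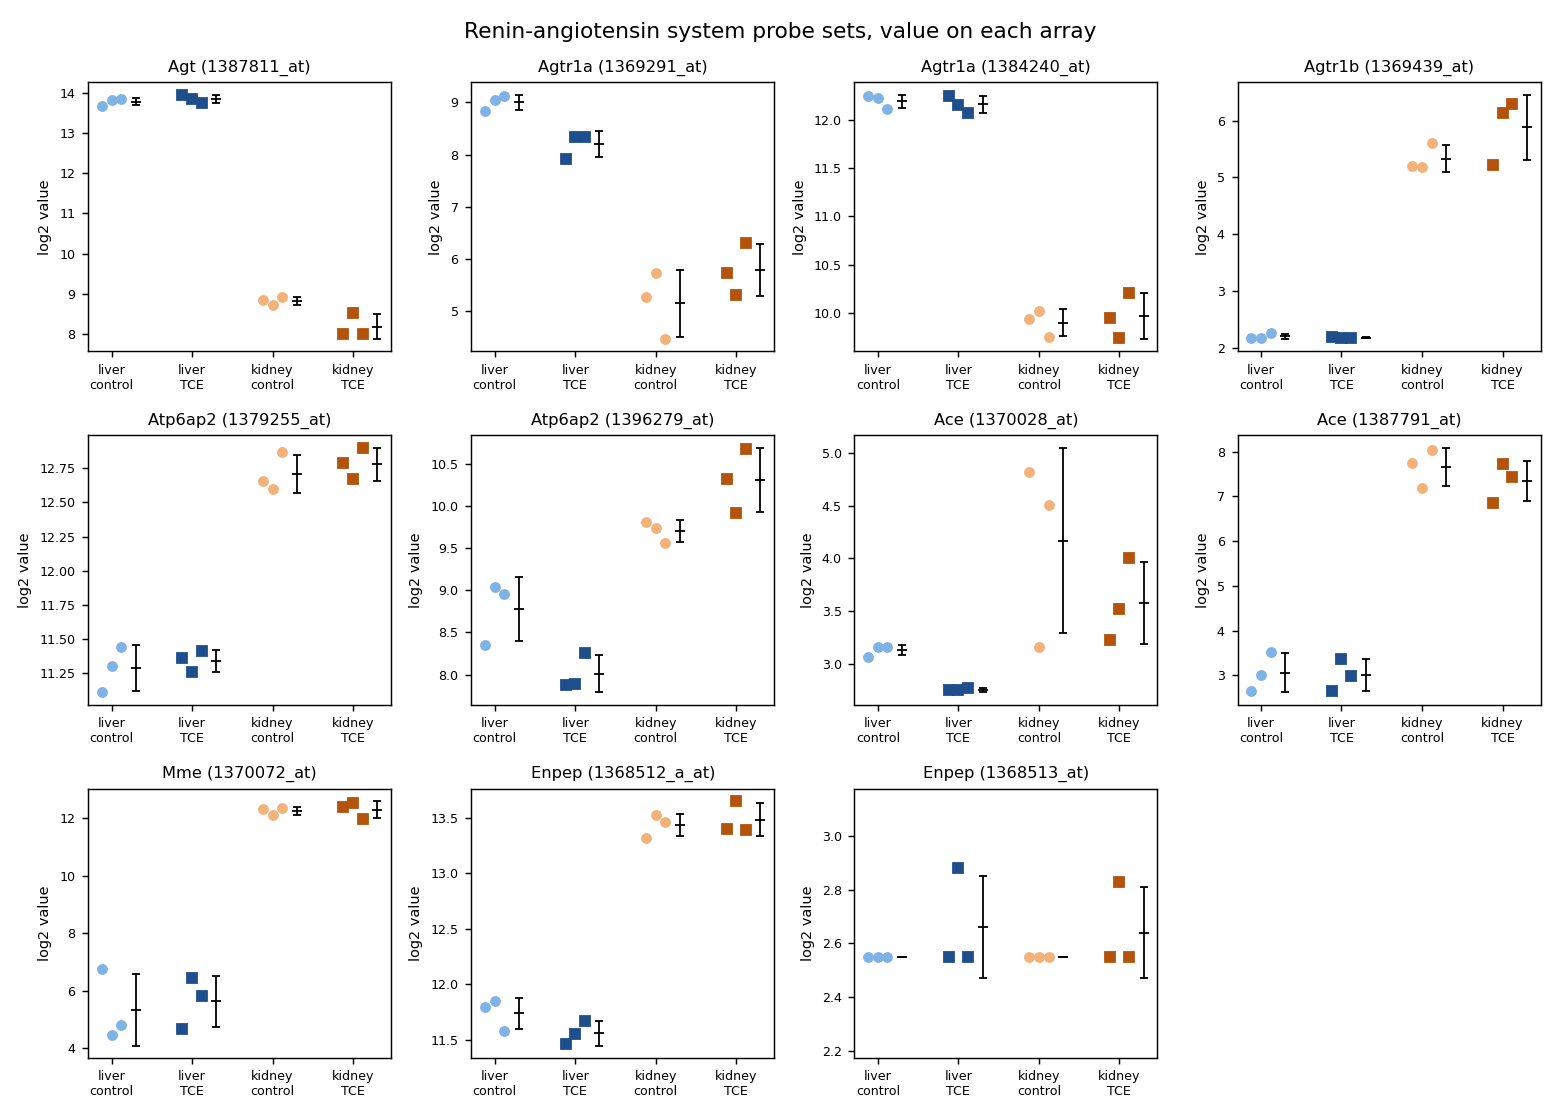
Value of each of the 11 member probe sets on each of the 12 arrays (log2 value, vertical axes differ between panels; circles, control; squares, TCE; black bars, mean ± SD of 3 arrays). Agt and both Agtr1a probe sets sit higher in liver and the Agtr1b, Mme and Ace 1387791_at sets higher in kidney, while TCE and control arrays lie close together for most sets.

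Agt encodes angiotensinogen, the precursor of all angiotensin peptides. Its probe set 1387811_at read 13.68, 13.83 and 13.84 log2 units in control livers and 13.96, 13.85 and 13.75 in treated livers. In kidney it read 8.85, 8.72 and 8.92 in controls and 7.99, 8.53 and 8.01 after TCE. Treated and control livers overlapped, all 6 livers lay above all 6 kidneys, and each treated kidney lay below every control kidney. Control livers exceeded control kidneys by 4.96 ± 0.09 log2 units (SE), or 31.0-fold (limma adjusted p = 4.99e-07). The difference after TCE was 0.07 ± 0.09 in liver (limma adjusted p = 0.745) and -0.65 ± 0.17 in kidney, a 1.57-fold lower level (unadjusted p = 0.0106, adjusted p = 0.241, both from limma). The liver and kidney effects differed by 0.72 ± 0.20 (limma adjusted p = 0.110), which passed without kidney TCE replicate 2 (0.89, adjusted p = 0.0218). The Gapdh gap is the amount by which the 3' control set of that transcript outshines its 5' set, and it reflects RNA quality. With it as a covariate the kidney difference was -0.20 ± 0.12. The gap averaged 0.97 in control and 0.65 in treated kidneys, so that fit separates treatment from gap only in part.

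Transcripts of hepatocytes varied among the same kidney arrays. Albumin (Alb), the main plasma protein of liver, read 9.89, 12.80 and 7.84 log2 units in control kidneys and 10.96, 4.36 and 6.31 in treated kidneys. Of 8 hepatocyte markers tested in kidney, 7 were lower after TCE, with a median difference of -1.53, and 0 passed limma's adjusted threshold. The mean of the 9 markers was 5.51, 7.77 and 4.45 in control kidneys and 5.75, 4.01 and 4.19 in treated kidneys, so the groups overlapped. Cyp2e1, the marker that was higher in treated kidneys, is also made by kidney. Without kidney control replicate 2, which had the most Alb, the Agt difference was -0.70. The part of hepatocyte transcripts in the Agt result was not tested.

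Agtr1a, the main type 1 angiotensin receptor of rodents, was measured by a bright and a dimmer probe set. The bright set, 1384240_at, read 12.24, 12.22 and 12.11 in control livers, 12.25, 12.15 and 12.07 in treated livers, 9.94, 10.02 and 9.75 in control kidneys and 9.95, 9.74 and 10.21 in treated kidneys. The dimmer set, 1369291_at, read 8.83, 9.04 and 9.12 in control livers and 7.91, 8.34 and 8.34 in treated livers. In kidney the dimmer set read 5.26, 5.73 and 4.46 in controls and 5.72, 5.30 and 6.31 after TCE. By the bright set the treated and control arrays overlapped in both tissues. By the dimmer set each treated liver lay below every control liver, while the kidneys overlapped. Both sets put liver above kidney, by 2.29 ± 0.09 log2 units or 4.88-fold for the bright set (limma adjusted p = 1.15e-05) and by 3.85 ± 0.33 or 14.4-fold for the dimmer one (0.000209). After TCE the bright set differed by -0.03 ± 0.08 in liver and 0.06 ± 0.14 in kidney. The dimmer set differed by -0.80 ± 0.16 in liver (limma unadjusted p = 0.00311, adjusted p = 0.165) and by 0.63 ± 0.41 in kidney (adjusted p = 0.520). That kidney value was 0.28 without kidney control replicate 3 and 0.36 without kidney TCE replicate 3. Its liver and kidney effects differed by -1.42 ± 0.45 (limma unadjusted p = 0.0104, adjusted p = 0.151).

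Agtr1b, the second type 1 receptor gene, was near the shared lowest value in liver. Its probe set 1369439_at read 2.18, 2.17 and 2.26 in control livers and 2.19, 2.18 and 2.17 in treated livers, and it did not pass the filter on dim probe sets for the liver comparison. In kidney it read 5.20, 5.18 and 5.60 in controls and 5.22, 6.14 and 6.30 after TCE, so 2 treated kidneys exceeded all controls and the other lay among them. The treatment difference in kidney was 0.56 ± 0.32 (limma adjusted p = 0.473), 0.89 without kidney TCE replicate 1 and 0.35 without kidney TCE replicate 3. Kidney exceeded liver in controls by 8.72-fold (log2 difference, liver minus kidney, -3.12 ± 0.13), a figure that livers at or near the lowest value make inexact. The set passed the filter of that comparison only through its kidney values, so its limma call there is not used as support. The Agtr1b probe set thus gave almost no signal in the tissue where the probe sets of its close relative Agtr1a were brightest.

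The promoters of Agtr1a and Agtr1b are shown because these related genes had opposite tissue patterns. They are the 250 bases before the annotated start in RefSeq on assembly GRCr8, read 5' to 3' along the gene, with chromosome 17, 34435433 to 34435682 (minus strand) for Agtr1a and chromosome 2, 104849263 to 104849512 (minus strand) for Agtr1b. Capitals mark matches, on either strand, to the motifs searched, and neighbouring GC boxes overlap.
Agtr1a: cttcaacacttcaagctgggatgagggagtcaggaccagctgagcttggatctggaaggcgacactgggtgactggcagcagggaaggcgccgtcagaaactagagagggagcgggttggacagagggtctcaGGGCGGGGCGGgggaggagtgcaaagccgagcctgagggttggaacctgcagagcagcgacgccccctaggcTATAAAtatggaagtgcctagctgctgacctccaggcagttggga
Agtr1b: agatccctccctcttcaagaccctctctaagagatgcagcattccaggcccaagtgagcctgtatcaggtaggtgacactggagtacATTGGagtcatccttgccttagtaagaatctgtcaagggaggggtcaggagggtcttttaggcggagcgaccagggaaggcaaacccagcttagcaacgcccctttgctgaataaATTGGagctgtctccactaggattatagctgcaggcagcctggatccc
The Agtr1a window holds a TATA box whose first base lies 45 bases before the start and a pair of overlapping GC boxes 117 and 112 bases before it. The Agtr1b window holds CCAAT on the opposite strand, 163 and 48 bases before the start, and neither of those motifs. Aligned end to end, the windows share 166 identical bases, or 57.6% of the alignment. Over 33469 windows of the same length, the TATA box, searched as TATAAA, occurs in 12.9%. The GC box, searched as GGGCGG, occurs in 30.5% of them and the letters CCAAT in 34.0%. Also searched were the E-box with the letters CACGTG, found in 5.6%, and an HNF1 element with the letters GTTAAT, found in 6.5%. These matches are letters in a window, and no binding was measured. A window was found for 6 of the 7 members.

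Atp6ap2 encodes a membrane receptor of the system that is also an accessory subunit of the vacuolar proton pump. Its brighter probe set, 1379255_at, read 11.11, 11.30 and 11.44 in control livers, 11.36, 11.26 and 11.41 in treated livers, 12.66, 12.60 and 12.87 in control kidneys and 12.79, 12.67 and 12.90 in treated kidneys. The groups of each tissue overlapped there, and kidney exceeded liver in controls by 2.68-fold (liver minus kidney -1.42 ± 0.12, limma adjusted p = 0.000203). The dimmer set, 1396279_at, read 8.35, 9.04 and 8.96 in control livers, 7.88, 7.89 and 8.26 in treated livers, 9.81, 9.74 and 9.56 in control kidneys and 10.32, 9.92 and 10.68 in treated kidneys. By this set the treated arrays lay below all controls in liver and above all controls in kidney. After TCE the brighter set differed by 0.05 ± 0.10 in liver and 0.07 ± 0.10 in kidney. For the dimmer set the values were -0.77 ± 0.22 in liver (limma unadjusted p = 0.0164, adjusted p = 0.268) and 0.60 ± 0.20 in kidney (unadjusted p = 0.0291, adjusted p = 0.296). The liver minus kidney difference of these effects was -1.38 ± 0.31 (limma unadjusted p = 0.00133, adjusted p = 0.0705). In control rats the dimmer set was 1.89-fold higher in kidney (-0.92 ± 0.20, limma adjusted p = 0.0104), a call that ended when each array was centred on its median (-0.51, adjusted p = 0.0527).

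**Figure D2:**
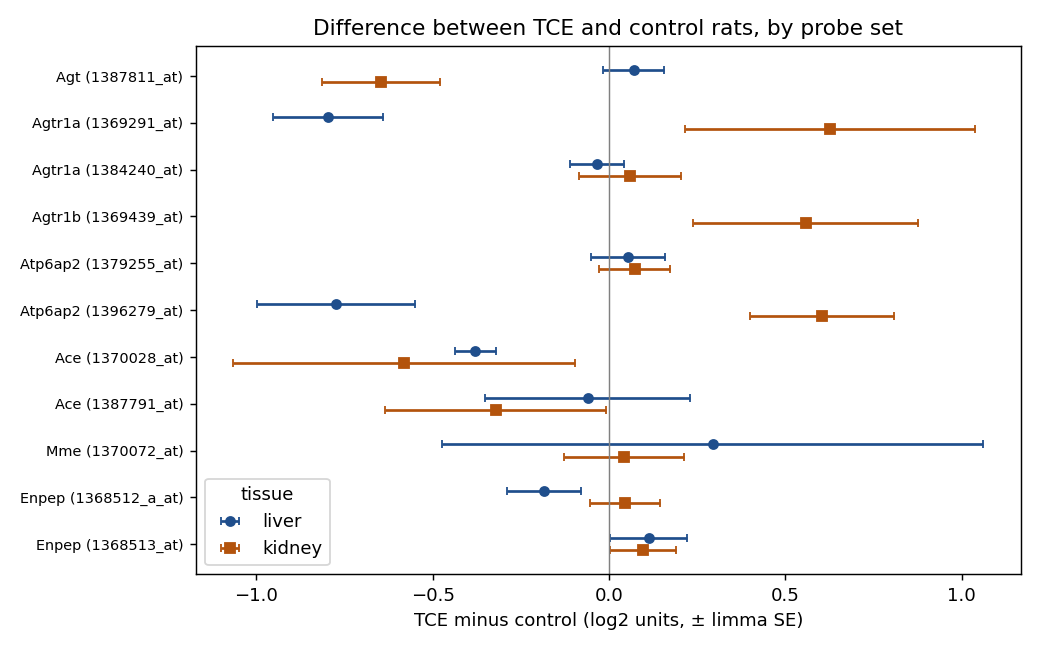
Difference between TCE and control rats for each member probe set in liver (circles) and kidney (squares), in log2 units with limma's SE. Agtr1a 1369291_at and Atp6ap2 1396279_at differ by -0.80 and -0.77 in liver and by 0.63 and 0.60 in kidney, while the brighter sets of the same genes lie near 0.

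The paired probe sets of Agtr1a and Atp6ap2 therefore disagreed about treatment. The dimmer minus the brighter Agtr1a set was -3.42, -3.18 and -2.99 log2 units in control livers and -4.34, -3.80 and -3.73 in treated livers. In kidney it was -4.68, -4.29 and -5.29 in controls and -4.23, -4.43 and -3.90 after TCE. For Atp6ap2 the dimmer minus the brighter set was -2.76, -2.26 and -2.48 in control livers against -3.47, -3.37 and -3.15 in treated livers, and -2.85, -2.87 and -3.31 in control kidneys against -2.47, -2.74 and -2.22 in treated kidneys. All treated livers lay below all control livers for both genes, and all treated kidneys above all control kidneys for Atp6ap2, while the kidneys overlapped for Agtr1a. The Gapdh gap moved on average in the opposite direction. It was 0.78, 0.80 and 0.86 in control livers and 1.70, 1.56 and 1.21 in treated livers. In kidney the Gapdh gap was 1.02, 0.85 and 1.05 in controls and 0.59, 0.87 and 0.51 after TCE. With that gap as a covariate, the dimmer Agtr1a set differed by -0.39 ± 0.37 in liver and -0.34 ± 0.42 in kidney. The dimmer Atp6ap2 set differed by -0.33 ± 0.57 and 0.12 ± 0.21, and limma adjusted p ran from 0.914 to 1.00 for both genes. Treated and control livers did not overlap in that gap, so the liver fits separate treatment from gap poorly. Without the gap the liver SE were 0.16 for Agtr1a and 0.22 for Atp6ap2. The 3' minus 5' gap of the Actb control sets averaged 4.64 in control and 5.33 in treated livers, and these groups overlapped. In kidney the Actb gap averaged 4.48 in controls and 4.31 after TCE, without overlap. The Actb gap was not used as a covariate. The 2 brightest sets were compared for each of the 2523 genes with 2 or more probe sets tested in both tissues. The dimmer minus the brighter of these differed by a median of -0.12 log2 units after TCE in liver and 0.06 in kidney, against -0.76 and 0.57 for Agtr1a and -0.83 and 0.53 for Atp6ap2. It was below 0 in liver for 65.7% of those genes and above 0 in kidney for 57.8%. The remaining member pairs did not share this pattern: the difference was -0.32 in liver and -0.26 in kidney for Ace, and 0.30 and 0.05 for Enpep, whose dimmer set read its own lowest value on 10 of the 12 arrays. The part of RNA quality in the result was not tested further, and the position of each probe set along its transcript was not used here.

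**Figure D3:**
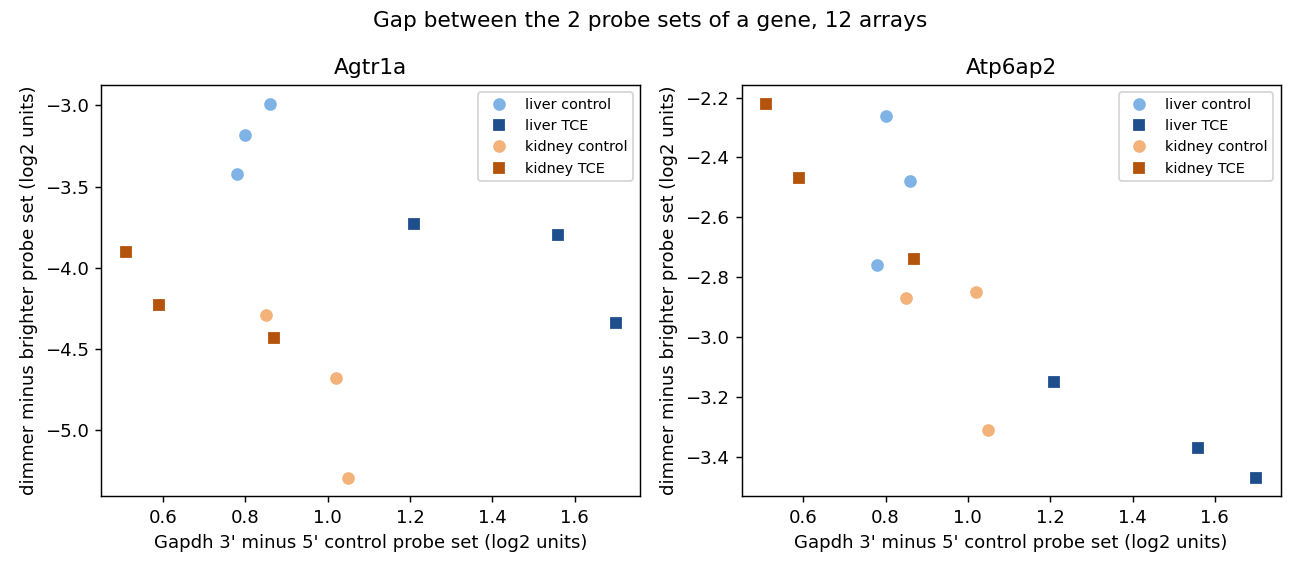
Dimmer minus brighter probe set of Agtr1a (left) and Atp6ap2 (right) against the 3' minus 5' gap of the Gapdh control probe sets, both in log2 units, 1 point per array (circles, control; squares, TCE). Treated livers have the largest Gapdh gaps, 1.21 to 1.70, and lie below the control livers in both panels.

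Ace encodes angiotensin-converting enzyme, which makes angiotensin II. Its brighter probe set, 1387791_at, read 2.65, 3.00 and 3.53 in control livers and 2.65, 3.37 and 2.98 in treated livers, against 7.74, 7.20 and 8.05 in control kidneys and 6.85, 7.72 and 7.44 in treated kidneys. Liver values were close to the lowest on the arrays, and the kidney groups overlapped. Kidney exceeded liver in controls by 24.2-fold (liver minus kidney -4.60 ± 0.31, limma adjusted p = 7.76e-05), a figure that the dim livers make inexact. The treatment difference was -0.06 ± 0.29 in liver and -0.32 ± 0.31 in kidney (limma adjusted p = 0.656). With 1 kidney array left out, the kidney value ran from -0.078 (without kidney TCE replicate 1) to -0.55 (without kidney control replicate 2). The dim set, 1370028_at, read 3.07, 3.16 and 3.16 in control livers and 2.75, 2.75 and 2.77 in treated livers, and in kidney 4.82, 3.16 and 4.51 in controls and 3.23, 3.52 and 4.00 after TCE. Treated livers lay below all control livers by this set, at or beside its own repeated lowest value of 2.75. Its difference was -0.38 ± 0.06 in liver (limma unadjusted p = 0.000989, adjusted p = 0.123) and -0.58 ± 0.48 in kidney (adjusted p = 0.610), where it was -0.25 without kidney control replicate 1 and -1.08 without kidney control replicate 2. It was not called between control liver and kidney (-1.03 ± 0.44, limma adjusted p = 0.0888) but was without kidney control replicate 2 (-1.53, adjusted p = 0.000716).

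Mme encodes neprilysin, a membrane peptidase that shortens angiotensin I to angiotensin-(1-7) and also degrades other peptides. Its probe set 1370072_at read 6.76, 4.46 and 4.81 in control livers, 4.68, 6.43 and 5.81 in treated livers, 12.33, 12.10 and 12.36 in control kidneys and 12.40, 12.54 and 11.97 in treated kidneys. The livers of both groups were scattered and overlapped, and the kidneys were bright and overlapped. Mme showed the largest tissue difference of the members, 121-fold higher in control kidney than in control liver (liver minus kidney -6.92 ± 0.62, limma adjusted p = 0.000248). The log2 difference was -7.62 without liver control replicate 1. TCE and control differed by 0.29 ± 0.77 in liver and 0.04 ± 0.17 in kidney, with limma adjusted p of 0.893 and 0.934. Without liver control replicate 1 the liver difference was 1.00.

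Enpep encodes glutamyl aminopeptidase, which turns angiotensin II into angiotensin III. Its probe set 1368512_a_at read 11.80, 11.85 and 11.58 in control livers, 11.46, 11.55 and 11.67 in treated livers, 13.32, 13.52 and 13.46 in control kidneys and 13.40, 13.65 and 13.39 in treated kidneys. Treated and control arrays overlapped in both tissues, and every kidney exceeded every liver. Kidney was 3.22-fold higher in controls (liver minus kidney -1.69 ± 0.10, limma adjusted p = 5.33e-05). The treatment difference was -0.18 ± 0.10 in liver (limma adjusted p = 0.480) and 0.05 ± 0.10 in kidney (0.857). The second Enpep set, 1368513_at, read 2.55 on 10 of the 12 arrays and 2.88 and 2.83 on liver and kidney TCE replicate 2, too dim to follow the gene.

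**Figure D4:**
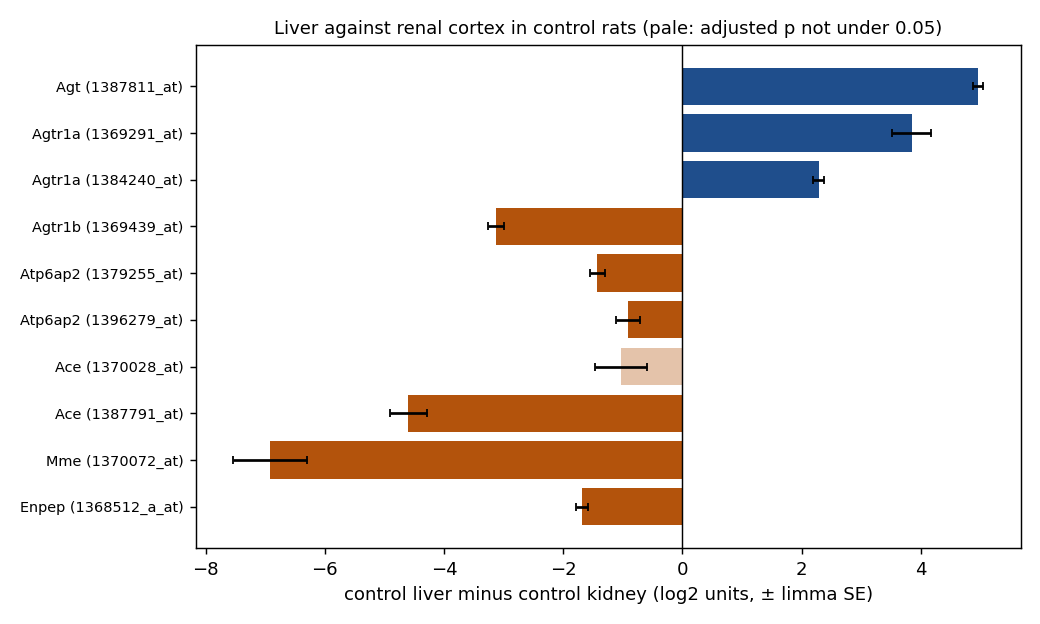
Control liver minus control kidney for the 10 member probe sets that passed the filter in this comparison, in log2 units with limma's SE (positive, higher in liver; pale bar, not past an adjusted p of 0.05). The bars reach from 4.96 for Agt to -6.92 for Mme.

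Counted by probe set, liver treatment gave 3 of 10 members at an unadjusted p under 0.05, where 13.8% of all probe sets had one, and 3 whose treated and control arrays did not overlap, all lower, where 19.2% of all did not overlap. In kidney 2 of 11 had an unadjusted p under 0.05, against 14.5% of all, and the same number, 1 higher and 1 lower, did not overlap, against 19.5% of all. The median difference of the member sets was -0.05 log2 units in liver and 0.06 in kidney, beside 0.02 and 0.00 over all sets tested. Of all sets tested, 54.8% were above 0 in liver and 51.4% in kidney. Direction counts of the gene lists are to be read beside these shares. For the difference between the liver and kidney effects, 0 of 11 members passed the adjusted threshold, where 1.06% of all probe sets did, and 3 had an unadjusted p under 0.05, where 17.7% did. The smallest adjusted p over all probe sets was 0.0802 in liver and 0.0968 in kidney.

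Of the other genes of the system, the receptors Agtr2 (type 2) and Mas1 (the receptor of angiotensin-(1-7)) read 2.17 in all 4 group means, the lowest value of the arrays. Agtrap, which binds the type 1 receptor and promotes its internalisation, averaged 6.17 in control livers and 10.45 in control kidneys. It differed by 0.05 ± 0.10 in liver and -0.32 ± 0.18 in kidney after TCE. Cltrn (collectrin), a membrane protein of the proximal tubule that helps amino acid transporters reach the brush border, averaged 3.29 and 15.15 in control liver and kidney, and differed by 0.41 ± 0.12 in treated kidneys (limma adjusted p = 0.270), with no overlap between the groups. Arrb1, an arrestin that binds activated receptors, differed there by -0.50 ± 0.14 (adjusted p = 0.256). Of 5 receptors and partners tested, 0 passed limma's adjusted threshold in liver or kidney.

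Of 8 further enzymes that cut angiotensin peptides or their precursors, 6 were lower and 2 higher in treated livers, and 4 were lower and 4 higher in treated kidneys, with 0 called by limma in either. Prcp, a carboxypeptidase that inactivates angiotensin II, read 9.57, 9.50 and 9.61 in control livers and 8.96, 9.17 and 9.16 in treated livers. All treated livers were lower, by -0.46 ± 0.08 (limma unadjusted p = 0.0021, adjusted p = 0.142). Anpep, aminopeptidase N, which acts after Enpep on angiotensin III, differed by -0.24 ± 0.09 in liver and -0.11 ± 0.11 in kidney. Ctsd, a lysosomal protease, differed by -0.31 ± 0.09 in liver. In kidney the endopeptidase Thop1 differed by -0.54 ± 0.18 and its relative Nln by 0.41 ± 0.13, with limma adjusted p of 0.288 and 0.280. The median over the enzymes was -0.19 in liver and 0.00 in kidney, beside 0.03 and 0.00 over all genes. All 8 were called by limma between the control tissues, 2 higher in liver and 6 higher in kidney, where 61.8% of all probe sets tested were called.

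The proton pump to which Atp6ap2 belongs gave 16 subunits. In treated livers 11 of 15 tested were lower and in treated kidneys 9 of 16 were higher, with 0 called by limma. Over all probe sets tested, 54.8% were higher in treated livers and 51.4% in treated kidneys. Atp6v0e1, a membrane subunit, read 11.47, 11.26 and 11.34 in control livers and 10.48, 10.68 and 10.83 in treated livers. The groups did not overlap, and the difference was -0.69 ± 0.11 (limma unadjusted p = 0.0015, adjusted p = 0.127). Atp6v0d1 differed by -0.35 ± 0.07 in liver. In kidney Atp6v0a1 differed by -0.34 ± 0.08, Atp6v1g1 by 0.21 ± 0.05 and Atp6v1h by 0.29 ± 0.07, with limma adjusted p of 0.239, 0.241 and 0.241. The median was -0.09 in liver and 0.06 in kidney. Between control tissues 13 subunits were called higher in kidney and 1 higher in liver, where 61.8% of all probe sets tested were called. Among the 13, Atp6v1b1 averaged 2.24 in control livers and passed the filter on dim probe sets only through its kidney values. Its call is therefore not used as support.

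**Figure D5:**
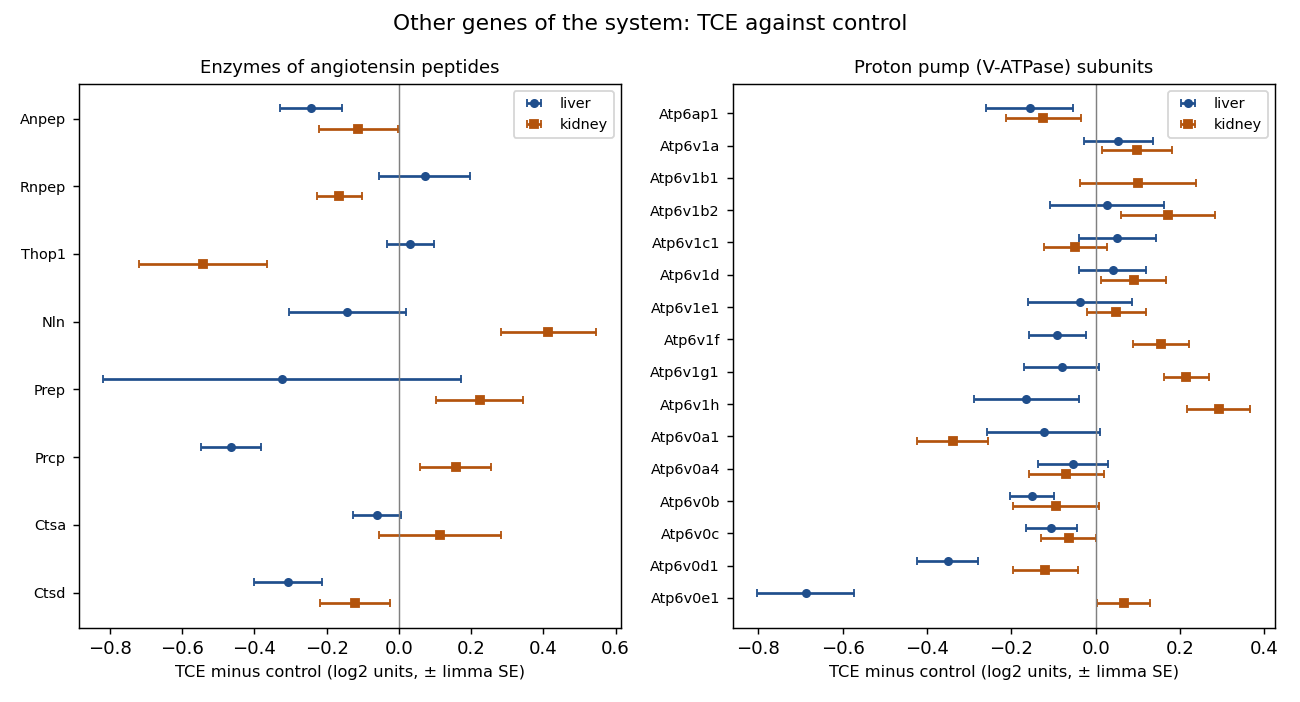
TCE minus control for further enzymes of angiotensin peptides (left) and subunits of the proton pump (right), in log2 units with limma's SE (circles, liver; squares, kidney). Prcp at -0.46 and Atp6v0e1 at -0.69 stand farthest from 0 in liver relative to their SE.

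Downstream in the aldosterone axis, 0 of 10 genes in liver and 0 of 11 in kidney passed. In treated kidneys Scnn1g, a subunit of the epithelial sodium channel, differed by 0.35 ± 0.10 (limma adjusted p = 0.262), Nr3c2, the mineralocorticoid receptor, by 0.37 ± 0.16, and Nedd4l, the ligase that removes the channel, by -0.23 ± 0.07. Treated and control kidneys did not overlap for these 3 genes, as for 19.5% of all probe sets tested in kidney. In the kinin system, whose bradykinin is broken down by Ace, 0 of 4 genes passed in either tissue. Klkb1, plasma prekallikrein, differed by 0.33 ± 0.07 in liver (limma adjusted p = 0.193). The kinin receptors Bdkrb1 and Bdkrb2 sat at the lowest value.

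Factors known to act on the Agt gene were tested next to it, 7 in all, and 0 passed limma's adjusted threshold. Hnf4a, which averaged 13.07 in control livers and 13.63 in control kidneys, differed by 0.40 ± 0.12 in liver (limma adjusted p = 0.274). In treated kidneys, where Agt lay below all controls, Stat3 differed by -0.29 ± 0.11, Nr3c1, the glucocorticoid receptor, by 0.17 ± 0.06 and Hnf4a by -0.02 ± 0.08. Of 9 brush border peptidases tested in kidney, the class that includes Mme and Enpep, 7 were lower and 2 higher after TCE with a median of -0.09 and 0 called. In liver 5 of 8 were lower, and 0 were called.

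Markers of cell types that hold members of the system were read on the same arrays, and 0 of any list passed limma's adjusted threshold for treatment. Of 9 podocyte markers 8 were higher in treated kidneys, with a median difference of 0.30, and the list mean was 7.35 to 7.41 in control and 7.74 to 7.84 in treated kidneys. Nphs1, nephrin, differed by 0.87 ± 0.15. Of 10 proximal tubule markers, cells that carry Mme, Enpep and Ace, 7 were higher in treated kidneys with a median of 0.08, and the list mean was 11.79 to 12.36 in controls and 12.12 to 12.20 after TCE. Of 7 juxtaglomerular, mesangial and smooth muscle markers, 5 were higher in each treated tissue, with Akr1b7 and Notch3 at the lowest value. The smooth muscle protein Tagln differed by 1.22 ± 0.13 in liver (limma adjusted p = 0.0929) and by -0.14 ± 0.08 in kidney. The 2 tested markers of this list that were lower in treated livers were Rgs5 at -0.55 ± 0.45 and Acta2 at -0.13 ± 0.09. For endothelium, which carries Ace in many organs, 4 of 9 markers were higher in treated kidneys and 5 of 9 in treated livers, with list means of 7.50 to 7.66 in control and 7.36 to 7.67 in treated kidneys. Of the distal nephron markers, 6 of 10 were higher in treated kidneys, with means of 11.08 to 11.33 and 11.15 to 11.41. Of the leukocyte markers, 6 of 6 tested were higher in treated kidneys with a median of 0.12. Their part in the member values was not tested.

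For each member tested in both tissues, the 2 genes most like it were found by Pearson's correlation over the 12 arrays after each tissue's mean was subtracted, among 10179 genes. For Agt they were Pomt1 and Tgfbi, both at 0.959, and for Agtr1a Car4 at 0.899 and St3gal6 at 0.875. For Atp6ap2 they were Ebag9 at 0.915 and Cpox at 0.881, and for Ace Arhgap45 at 0.898 and Paxip1 at 0.839. Mme was most like Akr1c15 at 0.966 and Csnk1d at 0.920, and Enpep most like Abat at 0.922 and Mri1 at 0.904. Between members the highest such value was 0.536, for Agt and Ace, and the lowest -0.528, for Agtr1a and Ace. These are descriptions over arrays that share tissue, and among so many genes high values occur for any gene.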

How the data were processed

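Total RNA from about 50 mg of each tissue was isolated with Trizol and RNeasy columns and hybridised to the arrays, per the labels' protocols. The authors deposited 1 table of log2 values, 31099 probe sets by 12 arrays; the log2 scale was read from their range. Per the submitters' processing notes they worked with affy and limma; how background, normalization and summary were done is not given here.

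Probe sets were named from the platform annotation: 436 had several symbols and 9780 none, and 57 control sets were left out. All 11 member sets carried the same symbol in the current gene table. The main fits were made in R 4.3.3 with limma 3.58.1 (lmFit, eBayes, two-sided) on probe sets with a mean above the 40th percentile, without further normalization, adjusted by Benjamini-Hochberg over 18625 probe sets at a threshold of 0.05. The fit of the difference between tissues treated its 12 arrays as independent; per the labels' protocols both tissues were taken from the dosed rats, and which arrays share a rat is not given there. The fit of control liver against control kidney likewise took its arrays as independent. Each p-value sets a difference between groups against the spread among 3 arrays a group. In that step limma's variance draws partly on all probe sets tested. Pathway genes were represented by their singly named probe set with the highest mean. Named genes were all member sets and, from each further list, up to 4 with the smallest p in each tissue; Agtr2 and Mas1 were named whatever their values. Members and lists were chosen with earlier results of these data known. The fit was tested on simulated data. Alternatives covered the filter, probe set choice, normalization, variance model, array weights, a replicate block, the Gapdh gap, and leaving out each array.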

Additional observations from a re-analysis of the deposited data

Results flagged for a closer look

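The dimmer Atp6ap2 probe set, 1396279_at, differed in opposite directions in the 2 tissues: every treated liver lay below every control liver and every treated kidney above every control kidney. The difference between the effects was -1.38 ± 0.31 log2 units (SE), which limma's test of that difference did not call (adjusted p = 0.0705). The brighter Atp6ap2 set gave -0.02 ± 0.16 for the same difference. The Gapdh gap was on average higher in treated livers and lower in treated kidneys than in controls. With that gap as a covariate the dimmer set differed by -0.33 ± 0.57 in liver and 0.12 ± 0.21 in kidney. These fits separate treatment from gap only in part.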

How the results depend on the processing

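Past limma's adjusted threshold there were 0 probe sets in liver and 0 in kidney. With no filter on dim probe sets there were 21 and 5, with all 12 arrays in 1 fit 384 and 43, and at an adjusted p under 0.1 there were 37 and 1. The 60th percentile filter gave 1 in kidney. Leaving out 1 array at a time gave 0 to 1 in liver and 0 in kidney. For the difference between the tissues' effects the count of 198 became 57 with 1 probe set per gene, 67 with probe sets averaged by gene, 448 with array weights, 699 at an adjusted p under 0.1, and 40 (without kidney control replicate 1) to 410 (without liver TCE replicate 3) when 1 array was left out. Control liver against kidney gave 11514 calls, 4983 higher in liver and 6531 lower. It gave 7309 with 1 probe set per gene and 7141 with their mean, where fewer features were tested. Centring each array on its median moved all liver minus kidney differences by 0.41 and gave 9130 higher and 4526 lower, and quantile normalization gave 6887 and 5846.

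Which arrays share a rat is not known. Same-numbered liver and kidney arrays of a treatment group had deviations that correlated at 0.00947 to 0.0807. For arrays with other numbers the means were -0.0368 to -0.00524. Same-numbered treated and control arrays of a tissue correlated at -0.0735 to 0.0298. These values do not settle whether equal numbers mark the same rat, and the main fits did not use the numbers as pairs. With a replicate block the count for the difference between effects was 0, and 0 member calls changed.

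Member results kept direction and side of the threshold in 649 of 694 alternative fits. Calls were gained in 7. Atp6ap2 1396279_at passed for the difference between effects at the 60th percentile filter (adjusted p = 0.0465), with trend and robust variance (0.0478), with array weights (-1.51, 0.0294), without kidney TCE replicate 2 (-1.57, 0.0424) and without liver control replicate 1 (-1.59, 0.0365). The other gains, for Agt and Ace 1370028_at, and the single loss, for Atp6ap2 1396279_at between tissues, stand in the results. Uncalled differences turned sign in 37 fits; the cause was not tested. With the Gapdh gap as covariate these were Enpep 1368512_a_at (0.14), Enpep 1368513_at (-0.010) and Agt (-0.23) in liver, and Agtr1a 1369291_at (-0.34), Agtr1a 1384240_at (-0.29) and Ace 1387791_at (0.31) in kidney. Averaging probe sets by gene gave -0.36 for Atp6ap2 in liver. Quantile normalization gave 0.040 for Agtr1a 1384240_at in liver and, for the difference between effects, 0.041 for Atp6ap2 1379255_at and 0.0084 for Agtr1a 1384240_at, and median centring gave -0.0069 for Enpep 1368513_at. Leaving out 1 array at a time gave ranges that cross 0. In liver they were -0.15 to 1.00 for Mme, -0.032 to 0.13 for Atp6ap2 1379255_at, -0.083 to 0.0074 for Agtr1a 1384240_at and -0.27 to 0.17 for Ace 1387791_at. In kidney they were -0.038 to 0.092 for Enpep 1368512_a_at, -0.077 to 0.21 for Mme and -0.063 to 0.18 for Agtr1a 1384240_at. For the difference between effects they were -0.095 to 0.11 for Enpep 1368513_at, -0.13 to 0.70 for Ace 1370028_at, -0.19 to 0.96 for Mme, -0.10 to 0.060 for Atp6ap2 1379255_at and -0.21 to 0.028 for Agtr1a 1384240_at. Dim sets (Agtr1b, Ace and Mme in liver, Enpep 1368513_at) limit what can be read from them.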
